A study of Mus musculus with 4 samples.

Results

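The Hox genes were examined in single cells of the mouse trachea. They were taken as every gene whose symbol is Hoxa, Hoxb, Hoxc or Hoxd followed only by digits, which gave 39 of 33697 features. Hox genes encode homeodomain transcription factors and lie in 4 clusters, HoxA to HoxD. Within a cluster, their order along the chromosome matches the order in which they are expressed from head to tail in the embryo, so the set of active Hox genes marks a position along the body axis. Low-numbered genes mark the head and neck and high-numbered genes the trunk, tail and distal limb. Hox proteins bind DNA together with the homeodomain partners Pbx and Meis, and adult connective tissue cells are known to keep the Hox pattern of the place they come from. Hoxa5 is known for its part in the development of the trachea and its cartilage.

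The study held 4 libraries, 1 each from the dorsal and ventral trachea of control and Ctnnb1 knockout mice. Control mice carried the alleles Ctnnb1-fl/+ and P63-CreER together with Rosa26-rsr-GFP and Ki67-lsl-Dre, and knockout mice carried the same 3 engineered alleles with Ctnnb1-fl/fl, so that both genotypes had a tamoxifen-dependent Cre driven by P63, a marker of basal cells, a Dre behind Ki67, a GFP reporter and at least 1 floxed Ctnnb1 allele. Every mouse received tamoxifen and its trachea was collected 10 days later. How many mice, and of what age, stand behind a library is not given in the sources used here. Sets of 4 values are given with the control libraries first and, within each genotype, dorsal before ventral. With 1 library per group there was no replicate and no test was run; intervals are 95% and cover counting error only. The comparisons of region and of genotype share libraries and are not independent of each other.

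The libraries kept 13246, 9744, 6185 and 6726 cells with medians of 15181.5, 13750.5, 15845 and 12400 unique molecular identifiers (UMIs, 1 for each captured RNA molecule). Between 21 and 57 barcodes were shared by any 2 libraries, at most 0.511% of the smaller one. Hox genes gave 19361, 15343, 15918 and 12467 UMIs in the kept cells. Levels are UMIs scaled to the total UMIs of the same cells (counts per 1000000, CPM). Ctnnb1 RNA in the basal gate was 283, 286, 205 and 224 CPM, and in the fibroblast gate, which should lack the Cre, it was 133, 154, 106 and 131 CPM. The reads may lie outside the deleted exons, whose identity the sources used here do not give, so these values do not check the deletion.

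Promoter sequence is shown for 4 members whose values carry the results below, 1 from each cluster. Each is the 250 bases before the gene start in RefSeq, build GRCm38.p6, which is an older build than the GRCm39 that the counts were made on. Capitals mark a match to TGATNNAT, the site bound jointly by Hox and Pbx proteins. Hoxa5 lies at chr6:52204588-52204837 on the minus strand, Hoxb1 at chr11:96365508-96365757, Hoxc4 at chr15:103034145-103034394 and Hoxd8 at chr2:74704365-74704614, all 3 on the plus strand.
Hoxa5: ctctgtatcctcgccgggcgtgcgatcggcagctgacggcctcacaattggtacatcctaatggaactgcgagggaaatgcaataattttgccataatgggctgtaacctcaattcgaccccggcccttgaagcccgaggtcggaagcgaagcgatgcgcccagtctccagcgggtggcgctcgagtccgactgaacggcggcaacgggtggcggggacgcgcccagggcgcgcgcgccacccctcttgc
Hoxb1: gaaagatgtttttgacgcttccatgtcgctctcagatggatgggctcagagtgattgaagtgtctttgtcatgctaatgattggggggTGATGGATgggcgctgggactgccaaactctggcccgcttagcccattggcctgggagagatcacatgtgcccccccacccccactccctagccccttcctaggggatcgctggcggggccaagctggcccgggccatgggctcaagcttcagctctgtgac
Hoxc4: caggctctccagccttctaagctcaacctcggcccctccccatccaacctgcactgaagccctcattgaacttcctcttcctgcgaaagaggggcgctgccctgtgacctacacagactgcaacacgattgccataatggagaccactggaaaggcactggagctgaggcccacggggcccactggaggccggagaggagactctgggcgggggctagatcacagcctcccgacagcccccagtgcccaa
Hoxd8: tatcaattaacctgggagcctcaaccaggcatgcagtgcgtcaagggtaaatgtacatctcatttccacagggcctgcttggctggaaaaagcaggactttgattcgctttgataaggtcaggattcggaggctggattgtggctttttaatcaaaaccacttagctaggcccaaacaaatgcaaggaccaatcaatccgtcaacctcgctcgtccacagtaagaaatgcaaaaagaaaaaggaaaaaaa

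Windows of 250 bases before to 50 bases after a start were held for 22 of the 39 Hox genes, 24 windows in all among 32851 of the genome. The median Hox window held 14.5 CpG pairs against 7 over all windows, and that of Hoxa5 held 29. On both strands, TGATNNAT was found in 4 Hox windows (16.7%, against 8.85% of all windows). The Meis site TGACAG was found in 2 (8.33% against 19.2%), the homeodomain core TAATTA in 2 (8.33% against 5.29%) and TATAAA in 4 (16.7% against 13.6%). A match describes the letters in the window and is not a measured binding site.

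Cells were assigned to types by marker gates, and the gates were checked on markers fixed for each type. Each list includes the genes of its own gate, so a gate's high level of its own list is partly fixed by the gating. Basal cells were gated on Trp63 and Krt5, secretory cells on Scgb1a1, ciliated cells on Tmem212, fibroblasts on Col1a2, chondrocytes on Acan and immune cells on Ptprc. The median cell of the fibroblast gate held between 17049 and 20572 CPM of its own marker list and at most 2058.5 CPM of the secretory list. Basal-gated cells held 6176 to 6892 CPM of basal markers and 15292 to 19293 CPM of secretory markers, against 335129 to 445961 CPM of the latter in the secretory gate. The Pecam1 gate went against its endothelial label. Cdh5, a cadherin of endothelial cells, was at 87.1, 30.1, 32.2 and 34.1 CPM there, while the secretory product Scgb3a1 reached 23434 CPM in the control ventral and 42329 CPM in the knockout ventral library and the thyroid product Tg reached 8728 CPM in the control ventral one. The Pecam1 gate was therefore narrowed to cells that also had a Cdh5 UMI, a step chosen after seeing these values. It left 56, 225, 28 and 220 cells. Cdh5 was at 188, 220, 186 and 217 CPM there, a rise fixed by requiring a Cdh5 UMI. The lymphatic genes Prox1 and Lyve1, which were not gated on, were at 345 to 471 and 1219 to 3091 CPM.

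The other gates held 2422, 1106, 1197 and 654 basal, 3058, 528, 788 and 256 secretory, and 1115, 497, 104 and 177 ciliated cells. Fibroblast-gated cells numbered 1224, 1215, 454 and 353, chondrocyte-gated cells 230, 351, 28 and 203, and immune-gated cells 359, 436, 261 and 323. Between 2478 and 3934 cells of a library passed no gate and 526 to 893 passed several. The cells without a gate were not alike across libraries: their median fibroblast marker level was 9845 CPM in the knockout dorsal library and 250.5, 22.8 and 1482 CPM in the others. Dorsal and ventral cells of 1 gate can thus be different mixtures, and the part this had in any Hox difference was not tested.

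Summed over all 39 genes, Hox RNA was highest in the Pecam1 and Cdh5 gate, lower in fibroblasts and chondrocytes, lower again in epithelium and lowest in immune cells. The summed levels were 236, 247, 298 and 308 CPM in the Pecam1 and Cdh5 gate, 156, 143, 169 and 142 CPM in the fibroblast gate and 164, 113, 198 and 136 CPM in the chondrocyte gate. Among epithelial gates they were 73.5, 68.6, 112 and 79.8 CPM in basal, 44.4, 41.4, 67.8 and 39.05 CPM in secretory, and 73.6, 72.6, 90.2 and 60.1 CPM in ciliated cells. The immune gate held 8.67, 7.69, 8.80 and 6.44 CPM. The immune gate is set beside the others as a comparison for free RNA, which droplets pick up from other cells. Its Hox level was 5.57%, 5.39%, 5.21% and 4.55% of that in the fibroblast gate, above the 0.184%, 0.278%, 0.678% and 0.721% seen there for Col3a1, a collagen of fibroblasts. How much of the immune Hox level was free RNA was not tested.

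Cells were also scored for any Hox UMI. They were compared at a depth of 5000 UMIs, leaving out shallower cells, by the exact share expected to keep a Hox UMI. That share was 50.3%, 49.1%, 55.0% and 48.3% of fibroblast-gated cells, and 28.9%, 27.6%, 41.3% and 30.2% of basal-gated cells. In the immune gate it was 3.62%, 2.35%, 3.18% and 2.41%. The knockout dorsal basal cells stood above the other basal cells, and the fibroblasts of the 3 other libraries lay close together. Without thinning, 72.3%, 78.5%, 88.3% and 79.9% of fibroblast-gated and 5.57%, 4.36%, 6.90% and 5.26% of immune-gated cells had a Hox UMI, at median depths of 10940, 13537, 14996.5 and 13633 UMIs against 7204, 8161, 11866 and 8783.

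**Figure D1:**
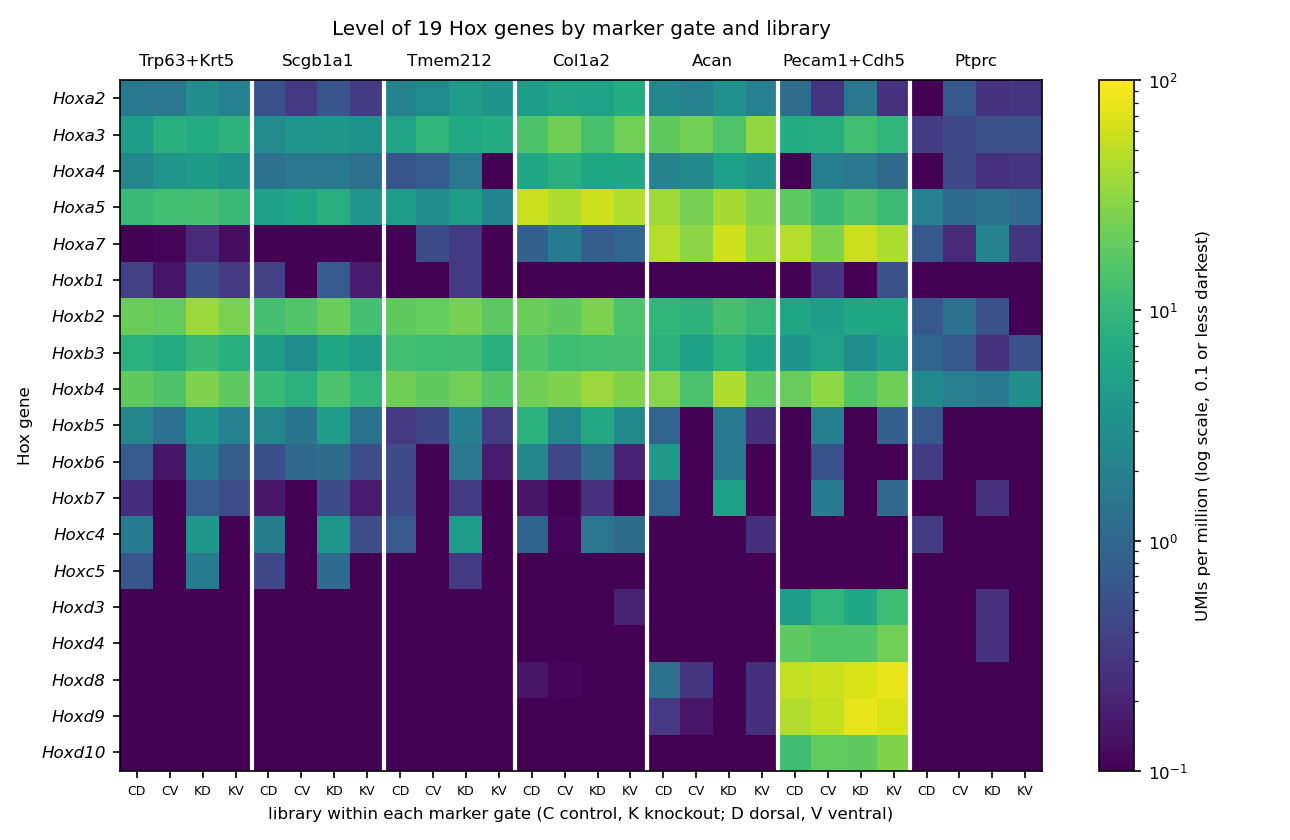
Level of 19 Hox genes with at least 100 UMIs in all (rows) in each marker gate and library (columns), as CPM on a log colour scale, with levels under 0.1 drawn as 0.1. HoxD genes are bright in the Pecam1 and Cdh5 gate alone among the gates drawn, Hoxa5 is brightest in the Col1a2 gate, and Hoxc4 and Hoxc5 are visible in dorsal epithelial columns.

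Of the 39 members, 20 had at least 100 UMIs over the 4 libraries. Those described here are Hoxa2 to Hoxa5 and Hoxa7, Hoxb1 to Hoxb7, Hoxc4 and Hoxc5, and Hoxd3, Hoxd4, Hoxd8, Hoxd9 and Hoxd10. The other 19 had between 0 and 35 UMIs in all, among them every gene of groups 11 to 13 at the tail end of the clusters. Hoxa11 and Hoxd12 had none. Hoxb8 had the most of these with 8, 7, 13 and 7 UMIs, and Hoxa6 had 2, 18, 1 and 9 UMIs, more in both ventral libraries. Hoxb9 had 2, 20, 2 and 0 UMIs, high in the control ventral library only, and Hoxd1 had 4, 9, 7 and 5 UMIs. Pooled over all cells, the members above the cut thus came from HoxA (without Hoxa6) and HoxB up to group 7. HoxC gave groups 4 and 5, and HoxD a set reaching group 10. Single gates did not hold all of these, as given below.

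Counts of neighbouring Hox genes are not fully separate. In GENCODE M21 on GRCm38, which is not the annotation used for counting, 9 of the 39 genes share exon bases on the same strand with another gene. In 4 the other gene is a Hox gene, Hoxc5 with Hoxc10 (166 bases) and Hoxd3 with Hoxd4 (388 bases). The predicted gene Gm28230 shares 53.1% of the exon bases of Hoxd3 and 39.1% of those of Hoxd4. Also, 10 of the 39 overlap a gene on the opposite strand, the most being Hoxb3, with 52.9% of its exon bases in Hoxb3os. The strand setting of the counting is not given in the sources used here, so the values of these genes are uncertain to that extent.

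The 4 clusters were used to different degrees by the gates. HoxA genes gave 54.3%, 58.2%, 50.8% and 59.0% of Hox UMIs in the fibroblast gate. HoxB genes gave 70.1%, 61.6%, 69.6% and 68.2% in the basal gate and 74.5%, 70.6%, 70.2% and 69.9% in the ciliated gate. HoxD genes gave 56.3%, 62.6%, 61.5% and 67.5% in the Pecam1 and Cdh5 gate, at 133, 155, 183 and 208 CPM. HoxC genes gave at most 5.32% in any of these gates and 7.41% in secretory cells of the knockout dorsal library, and were nearly a dorsal cluster, with 542, 24, 679 and 57 UMIs in the whole libraries.

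**Figure D2:**
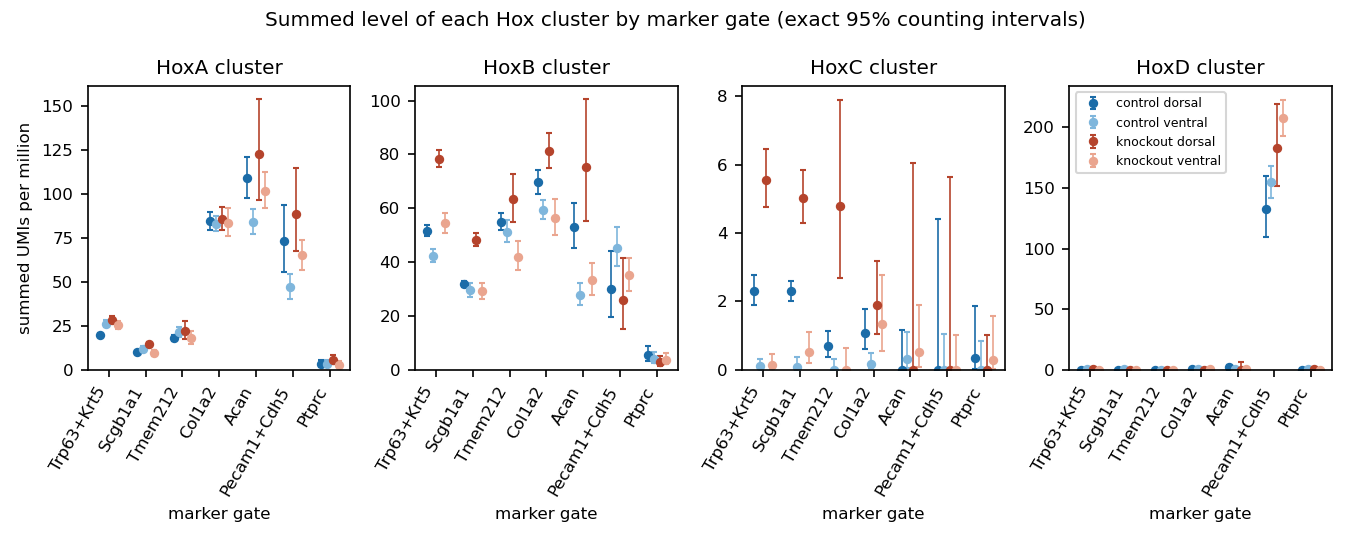
Summed CPM of each Hox cluster (panels, with separate linear axes) by marker gate and library, with exact 95% counting intervals. HoxD reaches 133 to 208 CPM in the Pecam1 and Cdh5 gate and stays near 0 in the others, and the dorsal points lie above the ventral ones for HoxC in the Trp63 and Krt5, Scgb1a1 and Tmem212 gates.

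Over whole libraries, 11 of the 20 members were past 2-fold between dorsal and ventral tissue in the same direction in both genotypes. Hoxb1, Hoxb6, Hoxb7, Hoxc4 and Hoxc5 were higher dorsally (5 of 20), where 1.13% of all genes with at least 50 UMIs were. Hoxa7, Hoxd3, Hoxd4, Hoxd8, Hoxd9 and Hoxd10 were lower dorsally (6 of 20), where 10.5% of all genes were. Of these, Hoxb6, Hoxa7, Hoxd8 and Hoxd9 had at least 50 UMIs on both sides of a pair, and the others reached that minimum only through the region where they were high. A level over a whole library also follows which cells it holds, and fewer cells of a type and less RNA per cell can be told apart only within a gate.

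Hoxc4 and Hoxc5, the anterior genes of the HoxC cluster, were the most dorsal members. Hoxc4 had 429, 15, 492 and 43 UMIs (1.501, 0.0740, 3.07 and 0.299 CPM) in the whole libraries. Both dorsal libraries were far above both ventral ones, with ratios of 20.3 (12.2 to 36.6) for the control pair and 10.3 (7.50 to 14.3) for the knockout pair. Hoxc5 had 111, 3, 173 and 7 UMIs, with dorsal to ventral ratios of 26.2 (8.75 to 129) and 22.1 (10.5 to 55.9).

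The difference was present within the epithelial gates. In basal cells, the stem cells of the airway lining, Hoxc4 had 81, 2, 117 and 0 UMIs (1.67, 0.0733, 3.85 and 0 CPM). The control ratio was 22.7 (6.09 to 191), and the knockout level was at least 20.2-fold higher dorsally, set against a floor of 3 counts per library. It was the 1 member of 9 past 2-fold in both pairs in basal cells, where 2.41% of genes were, and it reached the minimum of 50 UMIs only through the dorsal libraries. In secretory cells Hoxc4 had 210, 1, 127 and 6 UMIs, with ratios of 29.1 (5.17 to 1155) and 7.61 (3.40 to 21.1). Again it was the only member past 2-fold in both pairs, 1 of 8 against 0.831% of genes. Here too it reached the minimum of 50 UMIs only through the dorsal libraries. Ciliated cells had 15, 0, 14 and 0 UMIs, at least 2.71-fold and 8.66-fold higher dorsally.

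Outside the epithelium Hoxc4 was scarce. The fibroblast gate had 13, 2, 11 and 6 UMIs, with a control ratio of 8.29 (1.88 to 75.6) and a knockout ratio of 1.29 (0.437 to 4.24), and the chondrocyte and the Pecam1 and Cdh5 gates had 1 UMI between them. Hoxc5 had 31, 1, 52 and 1 UMIs in the basal gate, its highest level in both dorsal libraries, while the ventral counts are too low to rank gates. In the secretory gate it had 50, 0, 37 and 0 UMIs, at least 2.31-fold and 4.43-fold higher dorsally. In both gates the ventral libraries had at most 1 UMI of Hoxc5.

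**Figure D3:**
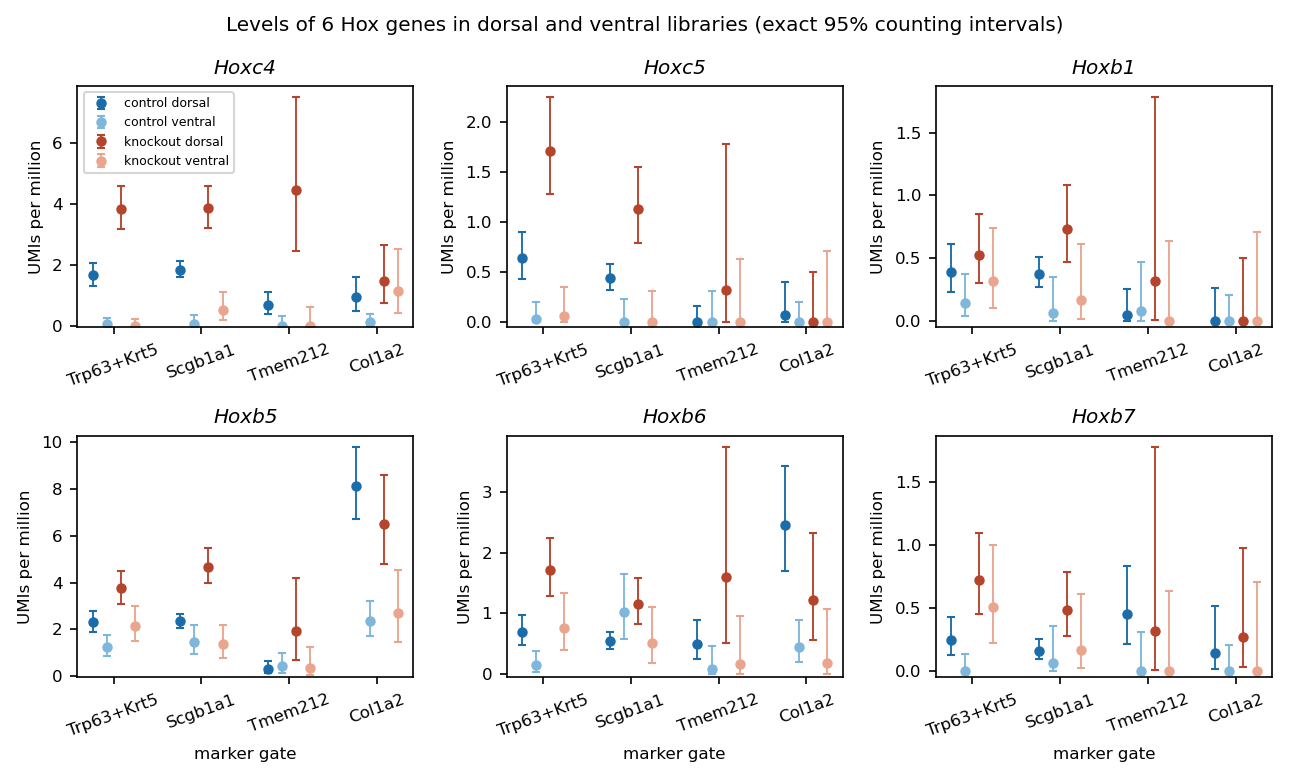
CPM of Hoxc4, Hoxc5, Hoxb1, Hoxb5, Hoxb6 and Hoxb7 (panels, linear axes) in 4 marker gates, 1 point per library with exact 95% counting intervals. For Hoxc4 in the Trp63 and Krt5 gate the dorsal libraries sit at 1.67 and 3.85 CPM and the ventral ones at 0.0733 and 0 CPM.

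In the HoxB cluster, the dorsal excess in control basal cells grew in size from Hoxb2 to Hoxb6, while Hoxb1 at the anterior end stood outside that order. The dorsal to ventral ratios in controls were 1.10 (0.992 to 1.23) for Hoxb2, 1.19 (0.999 to 1.42) for Hoxb3, 1.26 (1.12 to 1.43) for Hoxb4, 1.85 (1.25 to 2.80) for Hoxb5 and 4.77 (1.70 to 18.5) for Hoxb6. Hoxb7 had 12 UMIs dorsally and 0 ventrally, at least 2.24-fold, and Hoxb1 had a ratio of 2.66 (0.885 to 10.8). In knockouts the ratios were 1.43, 1.43 and 1.74 for Hoxb2, Hoxb4 and Hoxb5, 1.34 for Hoxb3, 2.24 (1.18 to 4.62) for Hoxb6 and 1.42 (0.611 to 3.70) for Hoxb7. In knockouts Hoxb3 and Hoxb7 broke the order, and in control secretory cells Hoxb6 was lower dorsally, at 0.537 (0.306 to 0.997). The order was noticed after the values were seen, rests on few UMIs of Hoxb6 and Hoxb7 (34, 4, 52 and 12, and 12, 0, 22 and 8), and the intervals of neighbouring genes overlap.

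In fibroblasts Hoxb5 and Hoxb6 were also higher dorsally. The order did not hold there, since in controls Hoxb3 was higher and Hoxb4 lower dorsally. Hoxb5 was at 8.14, 2.37, 6.50 and 2.70 CPM, higher in both dorsal libraries, with ratios of 3.43 (2.39 to 5.01) and 2.41 (1.31 to 4.73). It was the 1 member of 8 past 2-fold in the control pair, where 2.41% of genes were. In that pair it reached 50 UMIs only through the dorsal library, where it was high. In the knockout pair it had 48 and 14 UMIs, under the 50 that a call needed, so the count past 2-fold in both fibroblast pairs was 0 of 5, where 0.901% of genes were higher and 2.03% lower. Hoxb6 had 34, 8, 9 and 1 UMIs, with a control ratio of 5.42 (2.46 to 13.5). Hoxb1, which is known for the patterning of the hindbrain, had no UMI in fibroblasts or chondrocytes, and had 19, 4, 16 and 5 UMIs in basal and 43, 1, 24 and 2 in secretory cells.

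Hoxb2 and Hoxb4 were spread over many gates. Hoxb2 was at 21.04, 19.1, 35.1 and 24.6 CPM in basal, 18.5, 19.7, 24.0 and 17.4 CPM in ciliated and 21.2, 18.7, 25.6 and 14.1 CPM in fibroblast-gated cells. Hoxb4 was at 18.5, 14.6, 26.1 and 18.2 CPM in basal, 22.5, 18.6, 23.0 and 16.4 CPM in ciliated and 22.6, 26.1, 35.2 and 27.0 CPM in fibroblast-gated cells. Neither had 1 gate that was highest in all 4 libraries. Hoxb3 was at 8.29, 6.97, 10.2 and 7.63 CPM in basal and 15.2, 11.8, 12.3 and 12.5 CPM in fibroblast-gated cells.

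**Figure D4:**
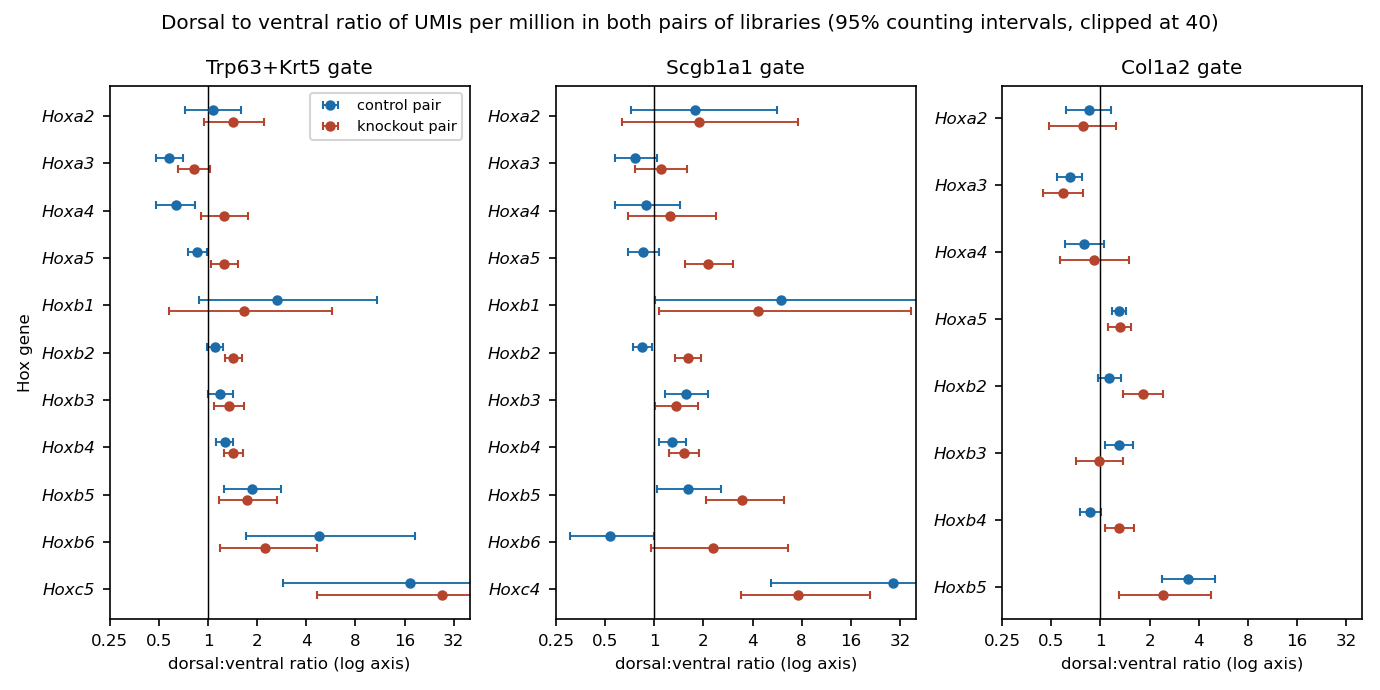
Dorsal to ventral ratio of CPM (log axis, 1 marked by a line) of Hox genes in the Trp63 and Krt5, Scgb1a1 and Col1a2 gates, in the control and knockout pairs, with 95% counting intervals clipped at 40. Only genes with at least 1 UMI in every library and at least 20 UMIs in each pair are drawn, so Hoxc4 is missing from the Trp63 and Krt5 panel because 1 library had 0; in the Col1a2 panel Hoxa3 lies left of the line and Hoxa5 and Hoxb5 right of it in both pairs.

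The HoxA genes did not share 1 pattern. Hoxa5 was a connective tissue gene that was higher dorsally there, at 57.4, 44.2, 59.6 and 45.5 CPM in fibroblast-gated cells. The control ratio was 1.30 (1.17 to 1.43) and the knockout ratio 1.31 (1.12 to 1.54). With looser gates the knockout log2 ratio was 0.09 (-0.07 to 0.26), so the knockout difference depends on the gate. In chondrocytes Hoxa5 was at 37.2, 24.2, 39.3 and 27.6 CPM, with ratios of 1.54 (1.20 to 1.97) and 1.43 (0.875 to 2.24). In basal cells it was at 10.7, 12.4, 13.2 and 10.5 CPM, with ratios of 0.862 (0.750 to 0.992) and 1.26 (1.05 to 1.52), on opposite sides of 1.

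Hoxa3, a gene of the pharyngeal organs of the neck, ran the other way. It was at 14.6, 22.5, 13.4 and 22.7 CPM in fibroblast-gated cells, lower in both dorsal libraries, with ratios of 0.647 (0.544 to 0.768) and 0.590 (0.447 to 0.777). Chondrocytes had 18.4, 22.9, 14.7 and 32.5 CPM, the highest gate in all 4 libraries by point value. The margin over fibroblasts was small in the control ventral library, at 22.9 against 22.5 CPM. It was also small in the knockout dorsal library, at 14.7 against 13.4 CPM, where the chondrocyte gate held 28 cells. In basal cells Hoxa3 was at 4.65, 8.03, 7.08 and 8.64 CPM, with ratios of 0.579 (0.478 to 0.70) and 0.819 (0.657 to 1.02). So within 1 cluster and 1 gate, fibroblasts held more Hoxa5 and less Hoxa3 dorsally in both genotypes. Neither was past 2-fold. Hoxa2 and Hoxa4 were also highest in the fibroblast gate in every library, at 4.83 to 7.13 and 5.82 to 7.97 CPM, with intervals that included 1 in both pairs.

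Hoxa7 belonged mainly to a pair of gates. It was at 46.4, 30.5, 60.6 and 34.8 CPM in chondrocytes and 46.7, 26.2, 58.1 and 42.7 CPM in the Pecam1 and Cdh5 gate. It was at most 0.230 CPM in basal cells. Within chondrocytes Hoxa7 was higher dorsally, by 1.52-fold (1.22 to 1.89) and 1.74-fold (1.17 to 2.52), although over whole libraries it was lower dorsally, at ratios of 0.318 and 0.270. The dorsal libraries held fewer cells of both gates that carry it, and Hoxa7 was also lower dorsally in cells without a gate, at 0.394 (0.271 to 0.562) and 0.645 (0.434 to 0.942).

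Chondrocytes had a dorsal excess over the summed cluster genes as well, with ratios of 1.46 (1.30 to 1.63) and 1.45 (1.18 to 1.77), against 1.09 and 1.19 in fibroblasts. Hoxb4 was the member past 2-fold in both pairs there, 1 of 4 against 0.29% of genes. It was at 28.6, 13.9, 44.2 and 17.9 CPM, with ratios of 2.06 (1.52 to 2.78) and 2.46 (1.52 to 3.90). The call in both pairs was lost in 3 alternatives, with size factors (control log2 ratio 0.87), with looser gates (0.80 and 0.93) and with cells in several gates counted in each (knockout 0.85). Hoxb6 had 13, 0, 1 and 0 UMIs, at least 9.12-fold higher dorsally in controls. Hoxa3 was past 2-fold lower dorsally in the knockout pair, at 0.453 (0.203 to 0.888), 1 of 4 where 12.4% of genes were. The knockout dorsal values rest on 28 cells, and with cells in several gates counted in each, the summed knockout log2 ratio was 0.10 (-0.17 to 0.35) in place of 0.54.

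**Figure D5:**
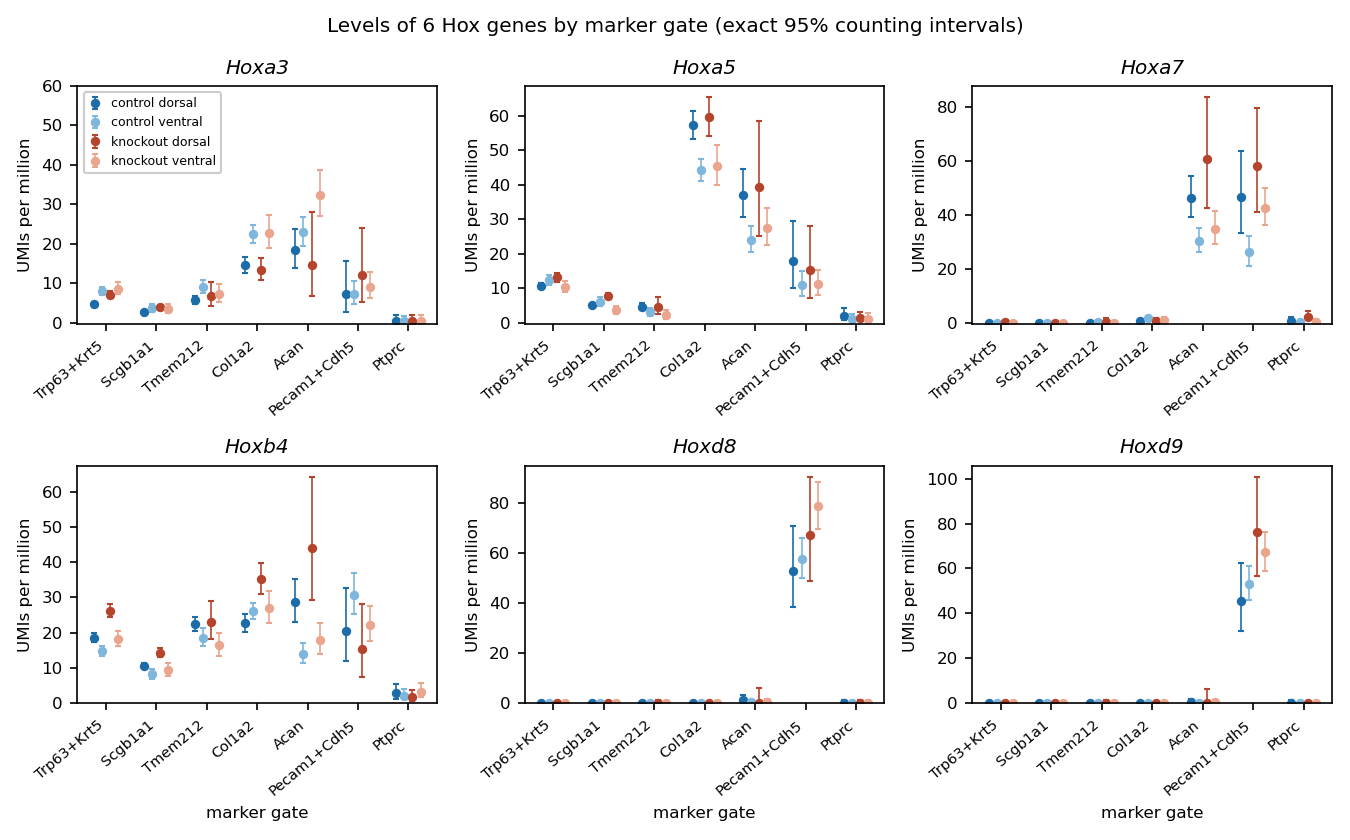
CPM of Hoxa3, Hoxa5, Hoxa7, Hoxb4, Hoxd8 and Hoxd9 (panels, linear axes) in 7 marker gates, 1 point per library with exact 95% counting intervals. Hoxa5 stands out in the Col1a2 gate, Hoxa7 in the Acan and the Pecam1 and Cdh5 gates, and Hoxd8 and Hoxd9 in the Pecam1 and Cdh5 gate.

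The HoxD genes were highest in the Pecam1 and Cdh5 gate with its lymphatic markers, and reached at most 1.27 CPM in the other gates. Hoxd8 was at 52.6, 57.4, 67.2 and 78.5 CPM and Hoxd9 at 45.5, 53.1, 76.4 and 67.2 CPM there. Hoxd4 was at 17.9, 15.2, 15.3 and 23.1 CPM, Hoxd10 at 11.96, 19.1, 18.3 and 27.0 CPM and Hoxd3 at 4.79, 9.28, 6.11 and 11.6 CPM. Within the gate Hoxd8 did not differ by region beyond counting error, with ratios of 0.918 (0.647 to 1.28) and 0.856 (0.609 to 1.18). Over whole libraries its ratios were 0.147 and 0.139, beside 56 and 28 gated cells in the dorsal and 225 and 220 in the ventral libraries. Not all of this RNA lay in the gate, which held 44, 204, 44 and 285 of the 69, 333, 58 and 375 Hoxd8 UMIs. Cells without a gate held 13, 66, 10 and 42 Hoxd8 UMIs, also fewer dorsally, with ratios of 0.24 (0.122 to 0.440) and 0.402 (0.180 to 0.814), and for Hoxd9 the control ratio there was 0.183 (0.0798 to 0.371). Of the 6 members with enough UMIs in this gate, none was past 2-fold lower dorsally in both pairs, where 1.32% of genes were.

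The study's other question was what loss of Ctnnb1, which encodes beta-catenin, does in each region. In basal cells of the dorsal libraries, summed Hox RNA was 1.53-fold higher (1.46 to 1.60) in the knockout than in the control library. Of 11 members with enough UMIs, Hoxb6, Hoxc4 and Hoxc5 were past 2-fold higher, where 2.97% of genes were, and none was past 2-fold lower, where 4.86% were. Hoxb6 and Hoxc5 had 34 and 31 UMIs in the control and 52 each in the knockout library, so they entered the count only through the library where they were high, and Hoxc4 alone had enough UMIs in both. The ratio was 2.31 (1.73 to 3.11) for Hoxc4, 2.69 (1.69 to 4.33) for Hoxc5, 2.45 (1.56 to 3.89) for Hoxb6 and 1.67 (1.53 to 1.82) for Hoxb2.

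Secretory cells of the dorsal libraries had nearly the same ratio, 1.53 (1.45 to 1.60), with Hoxb5, Hoxb6, Hoxc4 and Hoxc5 past 2-fold higher, 4 of 11 against 1.69% of genes. Ciliated cells had 1.22 (1.08 to 1.39), and Hoxc4 there was 6.56-fold higher (2.93 to 14.6). Fibroblasts, which should lack the Cre, had 1.09 (1.01 to 1.16), a direction that turned with stricter gates (log2 ratio -0.10), and none of 8 members past 2-fold higher, where 1.23% of genes were. Hoxb4 was the member with the largest ratio among those 8, at 1.56 (1.32 to 1.84). Chondrocytes and the Pecam1 and Cdh5 gate should lack the Cre as well. Their summed levels, given above, were also higher in the knockout dorsal library by point value, on 28 cells in each gate. So a higher level was not limited to the epithelial gates. The ungated cells, of which the knockout dorsal ones held far more fibroblast marker RNA, had 1.67 (1.60 to 1.75).

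Over whole dorsal libraries Hoxb7, Hoxc4 and Hoxc5 were past 2-fold higher in the knockout, 3 of 17 against 4.66% of genes.

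The ventral libraries differed less in basal, secretory and fibroblast-gated cells. In the chondrocyte and the Pecam1 and Cdh5 gates, the summed levels given above were again higher in the knockout, by point value. The 6 Pecam1 and Cdh5 members with enough UMIs had a median log2 ratio of 0.475, against 0.0473 over all genes. Summed Hox RNA in the knockout relative to the control was 1.16 (1.08 to 1.25) in basal, 0.943 (0.835 to 1.06) in secretory and 0.992 (0.912 to 1.08) in fibroblast-gated cells, and none of 6 basal members was past 2-fold higher, where 0.541% of genes were. Over whole libraries Hoxc4 had 43 UMIs in the knockout and 15 in the control ventral library, a ratio of 4.05 (2.20 to 7.84), and Hoxd10 was the 1 of 16 members past 2-fold higher, where 0.777% of genes were. That the dorsal and ventral ratios differ was not tested, since each rests on 1 library per group.

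Other properties of the knockout dorsal library moved with its Hox levels. Ribosomal protein genes took 15.4%, 16.8%, 20.3% and 16.4% of UMIs in basal cells. In the same comparison of basal cells, genes were split by genomic span into 5 equal classes; the shortest (up to 7.78 kb) had a median knockout to control ratio of 1.10 and the longest 0.790. The median span of the described Hox genes is 3.43 kb, but they range from 2.08 to 49.99 kb. Hoxb6, Hoxc4 and Hoxc5, the members past 2-fold in this comparison, span 9.09, 17.9 and 49.99 kb, outside the shortest class. The classes they fall in had median ratios of 0.982, 0.938 and 0.873. The summed Hox ratio of 1.53 lies above the median of the shortest class, and the part of RNA quality or gene span in it was not tested.

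The genes of the Hox partners were set beside the Hox genes. Of 9 Pbx, Meis and Pknox genes, 8 had enough UMIs in basal cells. None was past 2-fold higher dorsally (4.46% of genes in controls and 3.84% in knockouts), and 1 in controls and 2 in knockouts were past 2-fold lower (6.9% and 7.06% of genes). Meis2, which encodes a homeodomain partner of Hox proteins, was at 35.3, 62.2, 22.8 and 51.2 CPM, lower in both dorsal libraries, with ratios of 0.568 (0.531 to 0.608) and 0.445 (0.401 to 0.493). Pknox2, a relative of Meis2, had ratios of 0.370 (0.30 to 0.455) and 0.407 (0.312 to 0.528). In fibroblasts Meis2 was at 62.9, 112, 57.2 and 109 CPM, again lower dorsally, at 0.561 and 0.523, and Pbx3 at 0.681 and 0.516. Other gates did not have less Meis2 dorsally in both pairs. Secretory cells had 6.98, 7.89, 5.97 and 3.81 CPM, higher dorsally in knockouts at 1.57 (1.13 to 2.22). Meis2 was at 11.6, 10.5, 8.95 and 9.13 CPM in ciliated cells and 38.4, 29.0, 31.1 and 37.4 CPM in chondrocytes. The Pecam1 and Cdh5 gate had 132, 130, 147 and 131 CPM. Meis2 spans 203 kb, Pknox2 256 kb and Pbx3 202 kb, all in the longest class of genes. The median dorsal to ventral ratio of that class in basal cells was 0.883 in controls and 0.729 in knockouts. In fibroblasts it was 0.911 and 0.706. The part of gene span in the ratios of these partners was not tested.

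Between genotypes, Pbx3 in dorsal basal cells was at 0.498 (0.438 to 0.563) of the control level and Meis3 at 1.18 (1.03 to 1.34). Pbx3, a DNA-binding partner of Hox proteins, spans 202 kb, in the longest class of genes, whose median ratio was 0.790 in that comparison.

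Among non-coding RNAs of the clusters, Hotairm1 and Hoxaas2 were past 2-fold higher in basal cells of the knockout dorsal library. Of the 11 listed, 10 were in the files and 4 had enough UMIs in that comparison, so that 2 of 4 were past 2-fold higher, where 2.97% of genes were. Hoxaas2 (42 and 75 UMIs) reached the minimum only through the knockout library. Hoxb3os was at 1.65 (1.46 to 1.87) and Hoxaas3 at 1.29 (1.09 to 1.54), neither past 2-fold, and Hoxaas2 in fibroblasts was at 1.03 (0.699 to 1.51). Hotairm1, transcribed from the anterior end of HoxA, was at 80.3, 121, 199 and 134 CPM, lower dorsally in controls at 0.663 (0.632 to 0.694) and higher dorsally in knockouts at 1.49 (1.42 to 1.56). Its knockout to control ratio was 2.48 (2.38 to 2.58) dorsally and 1.10 (1.04 to 1.16) ventrally. In fibroblasts the same ratios were 1.78 (1.61 to 1.97) and 1.39 (1.24 to 1.56).

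Of 15 chromatin genes that keep Hox genes silent or active, 14 had enough UMIs in basal cells. In the dorsal knockout to control comparison none was past 2-fold higher (2.97% of genes) and 1 was past 2-fold lower (4.86% of genes). That was Kdm6a, a demethylase that removes the Polycomb mark, at 0.438 (0.414 to 0.462). Kdm6b, its relative, was at 0.515 (0.481 to 0.551), Cbx8, a reader of the mark, at 1.72 (1.42 to 2.08), and Bmi1, of the same repressive complexes, at 1.18 (1.06 to 1.32). In fibroblasts, Kdm6b was at 0.421 (0.390 to 0.454) in that comparison, the 1 of 14 past 2-fold lower where 6.26% of genes were, so its lower level was not limited to the epithelium. Kdm6a spans 117 kb and Kdm6b 15.2 kb.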

How the data were processed

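Single-cell RNA libraries (10x 5' chemistry) were deposited by the authors as UMI counts per gene and barcode, made with Cell Ranger 10.0.0 on GRCm39, per the submitters' processing notes. The members and lists were chosen with earlier results of these data known. A barcode counted as a cell from 500 detected genes upward, provided mitochondrial genes took no more than 15% of its UMIs. A cell entered a gate with at least 2 UMIs of Ptprc, Pecam1 or Acan, 10 of Col1a2, 3 of Tmem212, 1 of Trp63 with 3 of Krt5, or 1% of its UMIs from Scgb1a1, if it passed only that gate. UMIs were summed per gate and library and divided by all UMIs of those cells. Levels have exact Poisson and ratios conditional binomial intervals at 95%; UMIs count molecules, and intervals and floors cover counting error only. A gene was past 2-fold with at least 50 UMIs in 1 library of the pair. Members with at least 100 UMIs are given per library, except items not reported here; of the lists (Hox partners, cluster non-coding RNAs, chromatin genes), members with the furthest interval bounds are named. Shares of cells use a depth of 5000 UMIs; the exact expected share replaced a random draw after draws were seen to differ. Scrublet (scanpy 1.11.5) marked 275, 51 and 65 doublets and, at a fixed rate in the knockout ventral library, 181; they were kept and removed as an alternative. Other alternatives were looser and stricter gates, cells in several gates counted in each, no barcode filter, size factors, and a denominator without mitochondrial and ribosomal genes. Python 3.11.15, numpy 2.4.6, scipy 1.17.1 and pandas 2.3.3 were used, and the ratio code was tested on simulated data.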

Additional observations from a re-analysis of the deposited data

Results flagged for a closer look

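In 4 comparisons a Hox gene lay above 1 in one pair of libraries and below 1 in the other, with both intervals excluding 1. No share of all genes that did the same was available beside this count, so it does not set the Hox genes apart. The differences between pairs were not tested, since each group is 1 library. Hoxa5 in basal cells had a dorsal to ventral ratio of 0.862 in controls and 1.26 in knockouts. Hoxa5 in secretory cells had a knockout to control ratio of 1.51 dorsally and 0.603 ventrally. Hoxb2, in the same gate, had a dorsal to ventral ratio of 0.844 in controls and 1.60 in knockouts. In fibroblasts, Hoxb2 had a knockout to control ratio of 1.21 dorsally and 0.752 ventrally.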

How the results depend on the processing

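No paired analysis was possible because each group is 1 library, and no library could be left out in turn. As log2 ratios, summed Hox RNA in fibroblasts of the knockout against the control moved with the gate. Dorsally it was 0.12, against -0.10 with stricter gates and 0.22 with cells in several gates counted in each, and ventrally it was -0.01, against -0.22 with stricter gates. In basal cells the knockout dorsal to ventral value was 0.49, against 0.62 with size factors, and the dorsal knockout to control value was 0.61, against 0.74 with size factors and 0.71 without mitochondrial and ribosomal genes in the denominator. The number of Hox genes higher dorsally in both fibroblast pairs was 0, and 1 with looser gates, with several gates counted in each and with the Pecam1 gate narrowed by Cdh5. The drawn share of fibroblasts with a Hox UMI was 57.5% and 49.3% in the knockout dorsal and ventral libraries, against 44.2% and 37.3% with stricter gates. The cause was not tested. Of 175 other values, 10 moved with stricter gates, 16 with looser gates, 13 with several gates counted in each, and 0 with doublets removed or with no barcode filter. Size factors shifted every log2 ratio by 0.13 (basal, knockout dorsal to ventral), 0.12 (basal, dorsal knockout to control), 0.20 (secretory, dorsal knockout to control), -0.14 (secretory, control dorsal to ventral) and -0.18 (chondrocyte, control dorsal to ventral). Depth limits genes such as Hoxb7 and Hoxc5, which had few or no UMIs in ventral gates.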

Other observations

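Within the fibroblast gate, cells with UMIs of Prg4 or Kera and of no other subtype marker had more Hoxa3 than the gate as a whole in both ventral libraries, at 48.7 CPM (100 cells) in the control and 41.8 CPM (34 cells) in the knockout library. The dorsal libraries had 12 and 1 such cells, too few to compare. Most fibroblast-gated cells carried markers of several subtypes (917 of 1224, 838 of 1215, 384 of 454 and 258 of 353 cells, in the order control dorsal, control ventral, knockout dorsal, knockout ventral). In those cells Hoxa5 was at 58.7, 45.5, 58.2 and 39.96 CPM and Hoxa3 at 14.9, 21.4, 13.0 and 21.004 CPM, in the same order by region as in the whole gate.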
